A study of Mus musculus with 6 samples.

Results

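The lysosome and autophagy genes described here were 45 genes named by symbol. They held 3 transcription factor genes of the TFEB/MITF family and 4 genes of the folliculin and Rag GTPase module (*Flcn*, *Fnip1*, *Fnip2* and *Rragd*). Further groups were 6 lysosomal membrane proteins, 7 lysosomal proteases and 9 glycan and lipid hydrolases or their activators. The rest were 5 subunits of the vacuolar proton pump (V-ATPase), 10 autophagy genes and the membrane glycoprotein gene *Gpnmb*. A gene was kept when it had 10 or more counts in at least 3 of the 6 samples. All 45 were found among the 56748 gene identifiers of the series, of which 18328 reached that minimum, and all 45 reached it. The lowest count of any of them in any sample was 176.

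The samples were ureters of wildtype NMRI mouse embryos at stage E12.5, dissected and kept as explants on membrane supports for 18 h. LiCl, a salt that inhibits the kinase GSK3 and is used to activate canonical WNT signaling, was present at 15 mM in 3 samples, and 3 control samples received water. RNA was sequenced in bulk from the whole explant, which at this stage holds an epithelial tube and a coat of undifferentiated mesenchyme. How many ureters or litters went into a sample is not given in the sources used here, so p-values measure the spread between these samples only.

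The lysosome is the acidic compartment in which hydrolases break down proteins, glycans and lipids, and autophagy is the route by which a cell delivers its own cytoplasm to it. TFEB, TFE3 and MITF are related factors that bind E-box motifs in the promoters of lysosomal and autophagy genes, an array of targets known as the CLEAR network. On the surface of a well-fed lysosome, folliculin, its partners FNIP1 and FNIP2 and the Rag GTPases help mTORC1 to keep these factors in the cytoplasm, and GSK3 is one of the kinases known to phosphorylate TFEB.

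With LiCl, lysosomal membrane, protease and folliculin genes were mostly higher, and 2 of the 3 transcription factor genes were lower. Of the 10 autophagy genes, 3 were lower (30%), against 22.4% of all genes tested. *Gpnmb* and *Flcn* had the largest increases and *Wipi1* and *Map1lc3a* the largest decreases. At an adjusted p under 0.05 in edgeR's quasi-likelihood test, 18 of the 45 genes were higher (40%), 8 were lower (17.8%) and 19 passed in neither direction. Over all 18188 genes tested, 21.1% were higher and 22.4% were lower by the same rule. The median log2 fold change was 0.11 over the 45 genes and -0.01 over all genes tested. Every LiCl sample lay above every control in 20 of the 45 genes and below every control in 13, against 26.4% and 27.8% of all genes tested. For 1 gene alone, permuting 3 against 3 samples exactly gives no p smaller than 0.1. In these bulk samples, fewer cells of a type and less RNA per cell cannot be told apart.

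**Figure D1:**
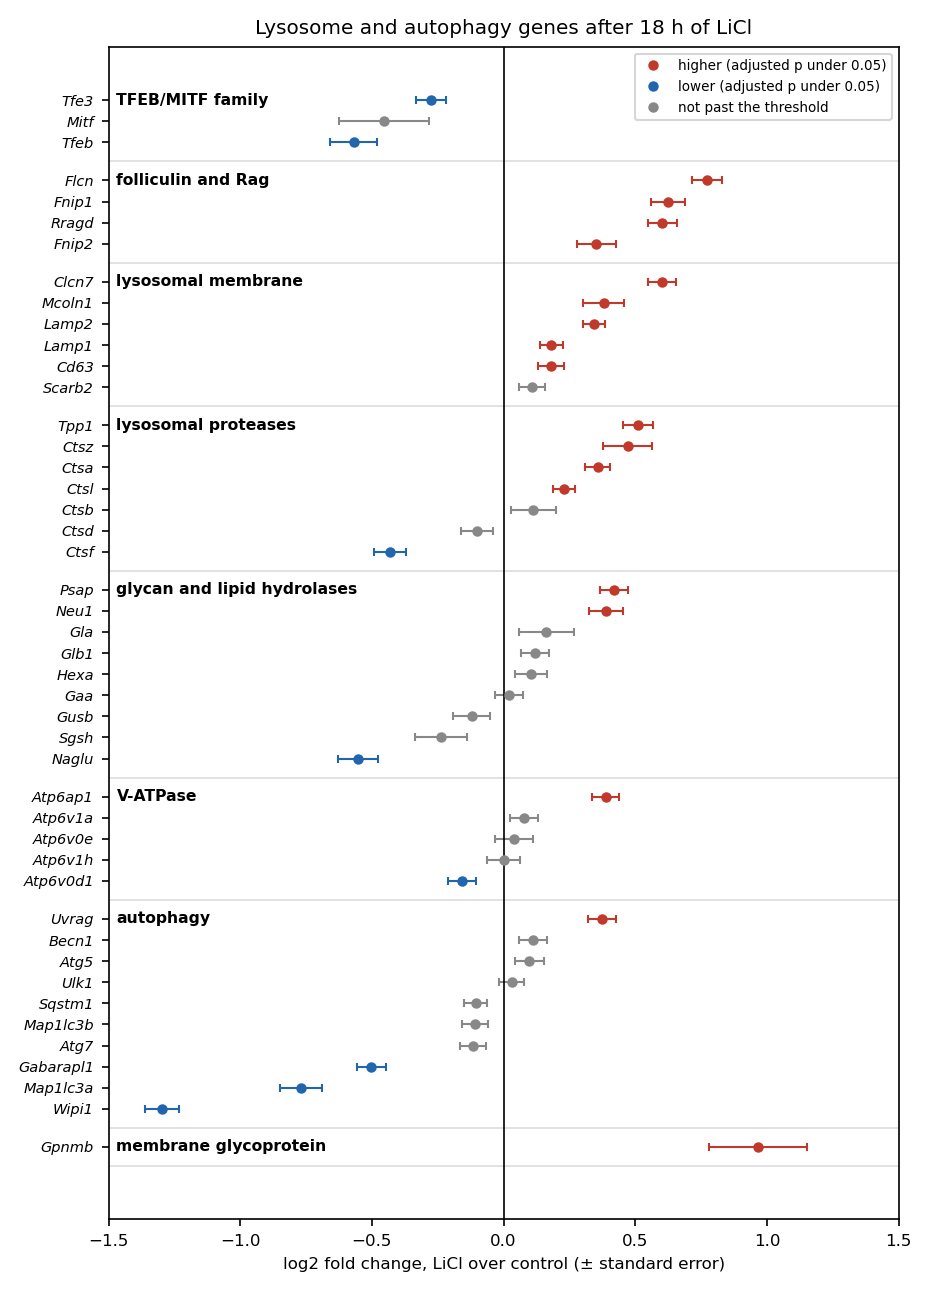
Log2 fold change with its standard error for the 45 genes, grouped by role on the vertical axis and ordered by size within each group, with 3 LiCl and 3 control samples. The 4 folliculin and Rag genes all lie to the right of 0 and the 3 TFEB/MITF family genes all lie to the left, while the autophagy genes reach from -1.30 (*Wipi1*) to 0.37 (*Uvrag*).

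The changes were moderate. Of the 26 genes that passed, 15 had a log2 fold change smaller than 0.5 in either direction. With a minimum log2 fold change of 1, 0 of the 45 genes passed as higher and 1, *Wipi1*, passed as lower, against 2.74% and 4.59% of all genes tested. *Gpnmb* stood just under that limit at 0.97. It passed when control replicate 3 (log2 fold change 1.20), LiCl replicate 1 (1.03) or LiCl replicate 2 (1.06) was left out.

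The transcription factor genes were the first group examined. *Tfeb* had 14.6, 13.9 and 13.4 CPM (counts of the gene relative to the TMM-scaled library size) in the controls and 9.75, 8.73 and 9.83 with LiCl. The groups did not overlap, and *Tfeb* fell by 0.57 on the log2 scale (SE 0.09, adjusted p = 0.000887). *Tfe3*, the most abundant of the 3 per gene length, had 63.4, 69.1 and 67.1 CPM in the controls and 58.0, 54.4 and 52.5 with LiCl. Its log2 fold change was -0.28 (SE 0.06, adjusted p = 0.00408), again with no overlap. *Mitf*, best known from pigment cells, had 8.70, 11.8 and 10.1 CPM in the controls and 5.66, 8.41 and 8.34 with LiCl. All 3 LiCl samples lay below all controls, but the controls differed among themselves and the log2 fold change of -0.45 (SE 0.17) missed the threshold (adjusted p = 0.0574). *Mitf* passed when control replicate 1 was left out (adjusted p = 0.0397) or LiCl replicate 2 (adjusted p = 0.0493), and with all 6 samples under library size scaling alone (0.0408), DESeq2 (0.0419) or no filter on low counts (0.0144), so it lay close to the threshold.

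*Gpnmb*, a transmembrane glycoprotein of lysosomes and melanosomes whose transcription is known to depend on MITF and TFE3, showed the largest increase. It had 9.50, 8.25 and 13.4 CPM in the controls and 18.7, 17.5 and 24.7 CPM with LiCl. Its level was 1.95-fold higher with LiCl (log2 fold change 0.97, SE 0.18, adjusted p = 0.00264). The third replicate was the highest within each group. Melanocyte genes bear on *Mitf* and *Gpnmb*: *Tyr* and *Tyrp1* had a count of 0 in all 6 samples, and *Dct*, *Mlana* and *Oca2* had at most 8 counts in any sample. The other 4 of the 9 melanocyte markers were detected. *Pmel* had 0.77 to 1.67 CPM and did not pass (log2 fold change -0.49, adjusted p = 0.205), and *Slc45a2* had 0.065 to 0.45 CPM and was not tested. *Kit* (47.1 to 74.3 CPM) and *Ednrb* (118 to 176 CPM), which other cells of the embryo also express, were lower with LiCl (log2 fold changes -0.42 and -0.46), and the part of pigment cells in these results was not tested.

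All 4 listed genes of the folliculin and Rag module rose (100%, against 21.1% of all genes tested), whereas *Tfeb* and *Tfe3* fell. Only *Rragd* among the 4 encodes a Rag GTPase, and the Rag genes outside the 45 differed in direction. *Flcn*, encoding folliculin, had 43.9, 41.7 and 44.8 CPM in the controls and 78.8, 70.7 and 73.1 CPM with LiCl. It was 1.71-fold higher (log2 fold change 0.77, SE 0.06, adjusted p = 1.29e-05). Its lowest LiCl sample was well above its highest control.

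*Fnip1*, whose product binds folliculin, had 58.6, 49.6 and 52.2 CPM in the controls and 82.7, 80.8 and 83.3 CPM with LiCl, a log2 fold change of 0.62 (SE 0.06, adjusted p = 8.56e-05). The related gene *Fnip2* changed less, from 50.4, 42.9 and 47.2 CPM to 54.7, 63.1 and 61.5 CPM (log2 fold change 0.35, SE 0.08, adjusted p = 0.00476). *Rragd*, a Rag GTPase gene known as a TFEB target, had 31.2, 29.4 and 29.4 CPM in the controls and 43.6, 46.4 and 46.6 CPM with LiCl (log2 fold change 0.60, SE 0.06, adjusted p = 4.23e-05). The groups did not overlap for any of these 3 genes.

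**Figure D2:**
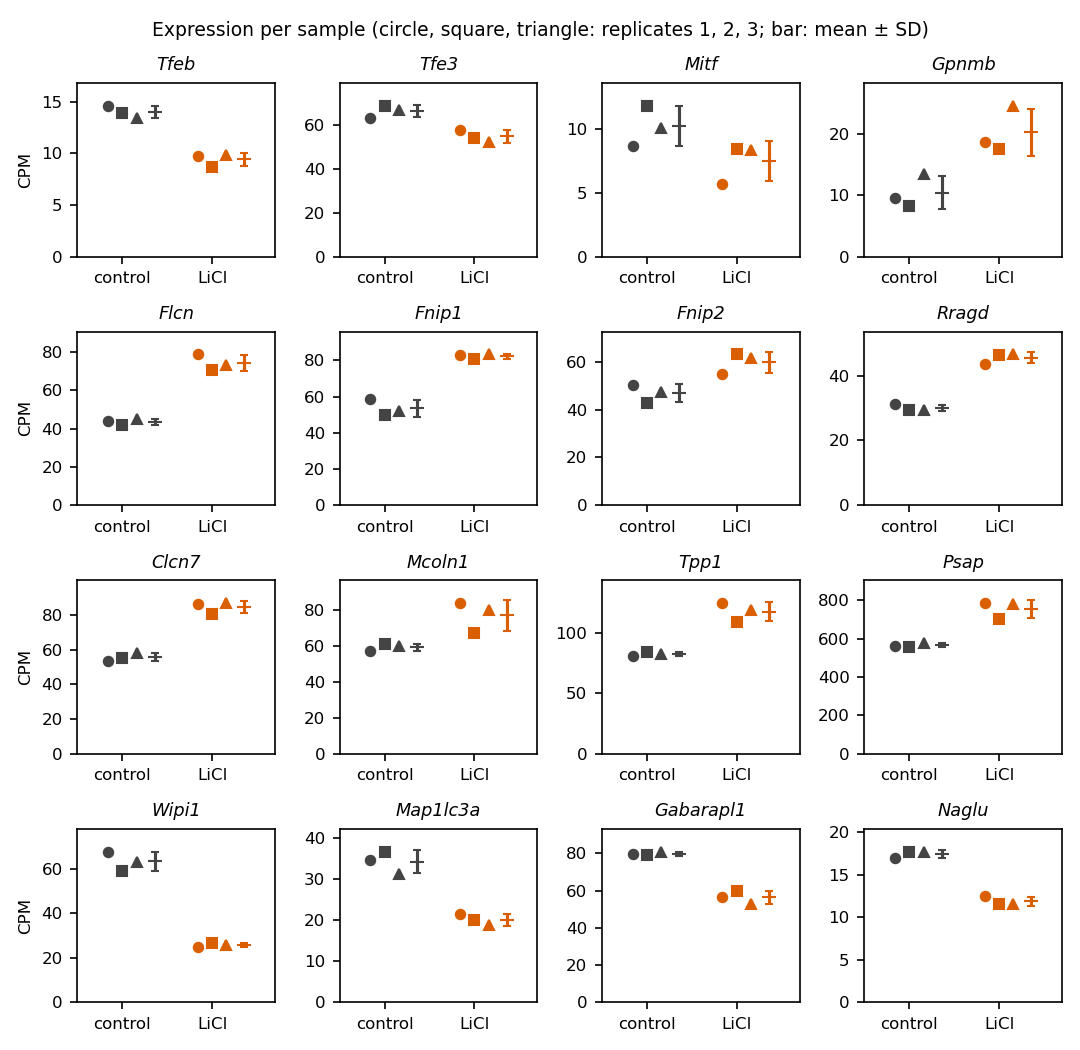
CPM in each of the 6 samples for 16 of the genes, with the mean and SD of each group beside the points and each vertical axis starting at 0. *Flcn*, *Clcn7* and *Tpp1* show 3 LiCl samples above the controls, *Wipi1* and *Map1lc3a* show 3 LiCl samples below them, and *Mitf* and *Gpnmb* show the widest spread within groups.

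Of the 6 lysosomal membrane genes, 5 rose (83.3%) and 0 fell, against 21.1% and 22.4% of all genes tested. Their median log2 fold change was 0.26. *Clcn7*, the chloride and proton exchanger of the lysosomal membrane, had 53.7, 55.4 and 58.0 CPM in the controls and 86.3, 80.5 and 86.8 CPM with LiCl (log2 fold change 0.60, SE 0.05, adjusted p = 3.41e-05). *Mcoln1*, the lysosomal calcium channel TRPML1, had 57.2, 60.8 and 59.7 CPM in the controls and 83.8, 67.3 and 80.0 CPM with LiCl (log2 fold change 0.38, SE 0.08, adjusted p = 0.00391). Its second LiCl replicate lay closer to the controls than the other 2 did.

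The abundant membrane glycoproteins changed less than *Clcn7*. *Lamp2* rose from 296, 286 and 284 CPM to 377, 357 and 365 CPM (log2 fold change 0.34, SE 0.04, adjusted p = 0.000257). *Lamp1* rose from 266, 284 and 276 CPM to 311, 311 and 316 CPM (log2 fold change 0.18, SE 0.04, adjusted p = 0.00808). The tetraspanin gene *Cd63* had 163, 173 and 166 CPM in the controls and 192, 179.8 and 196 CPM with LiCl (log2 fold change 0.18, SE 0.05, adjusted p = 0.0169). Both LAMP genes and *Cd63* had no overlap between groups, although the lowest LiCl sample of *Cd63* was close to its highest control. The call of *Cd63* was lost when control replicate 1 (adjusted p = 0.0549), control replicate 3 (0.0603) or LiCl replicate 3 (0.0742) was left out. *Scarb2*, an integral membrane protein and sorting receptor of the lysosome, overlapped between groups (0.11, SE 0.05, adjusted p = 0.109).

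Among the 7 proteases, 4 rose (57.1%), 1 fell (14.3%) and 2 passed in neither direction, against 21.1% higher and 22.4% lower of all genes tested. *Tpp1*, a tripeptidyl peptidase, had 80.5, 84.2 and 82.3 CPM in the controls and 125, 109 and 118 CPM with LiCl (log2 fold change 0.51, SE 0.06, adjusted p = 0.000141). *Ctsa*, the carboxypeptidase that protects neuraminidase, rose from 139, 147 and 146 CPM to 181, 180 and 191 CPM (log2 fold change 0.36, SE 0.05, adjusted p = 0.000355). Neither gene overlapped between groups. The cysteine protease gene *Ctsl* rose from 286, 282 and 272 CPM to 329.8, 329.5 and 325 CPM (log2 fold change 0.23, SE 0.04, adjusted p = 0.00204). *Ctsz*, a carboxypeptidase, rose from 65.2, 72.1 and 80.5 CPM to 93.4, 95.1 and 114 CPM (log2 fold change 0.47, SE 0.09, adjusted p = 0.00319), with a wider spread in both groups than *Ctsl*.

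*Ctsf*, another cysteine protease gene, went the other way, from 47.4, 52.3 and 49.6 CPM to 38.6, 35.2 and 37.0 CPM (log2 fold change -0.43, SE 0.06, adjusted p = 0.000439). The 2 best known cathepsins did not pass: *Ctsb* had a log2 fold change of 0.11 (SE 0.09, adjusted p = 0.318) and *Ctsd* one of -0.10 (SE 0.06, adjusted p = 0.199), and both groups overlapped for each. Of the 45 genes, *Ctsb*, *Ctsd*, *Ctsz*, *Gpnmb*, *Clcn7*, *Gusb* and *Hexa* were highest in replicate 3 of each group. How many of all genes tested share that order was not counted, so these genes do not stand out by it. The summed CPM of 16 macrophage markers was highest in replicate 3 of each group too, with 141, 162 and 214 in the controls and 121, 119 and 157 with LiCl. Of these markers, 9 were lower with LiCl and 1, *Adgre1*, was higher. The summed endothelial markers were also highest in replicate 3 of each group (702 CPM in the control and 626 CPM with LiCl), and the part of either cell type in the results was not tested.

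Most glycan and lipid hydrolases did not pass, with 2 of 9 higher (22.2%) and 1 lower (11.1%), against 21.1% and 22.4% of all genes tested. *Psap*, the precursor of the saposins that present sphingolipids to their hydrolases, was the most abundant of all 45 genes per gene length. It had 563, 555 and 575 CPM in the controls and 786, 700 and 778 CPM with LiCl (log2 fold change 0.42, SE 0.05, adjusted p = 0.000236). The neuraminidase gene *Neu1* rose from 23.4, 24.8 and 24.0 CPM to 33.6, 29.6 and 31.4 CPM (log2 fold change 0.39, SE 0.06, adjusted p = 0.00122).

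*Naglu*, which degrades heparan sulfate, fell from 16.9, 17.7 and 17.7 CPM to 12.52, 11.6 and 11.6 CPM (log2 fold change -0.55, SE 0.08, adjusted p = 0.000434). *Sgsh*, an enzyme of the same degradation route, had a log2 fold change of -0.24 (SE 0.10) that did not pass (adjusted p = 0.0794). The remaining 5 hydrolases were *Gla*, *Glb1*, *Hexa*, *Gaa* and *Gusb*, which cleave galactose, hexosamine, glucose or glucuronic acid residues. Their log2 fold changes lay between -0.12 (*Gusb*) and 0.16 (*Gla*), none of them past the threshold, with standard errors from 0.05 to 0.10. *Glb1* passed in limma on log2(FPKM + 1) and on log2(FPKM + 0.1), with adjusted p-values of 0.0451 and 0.0444.

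Of the 5 V-ATPase genes, the accessory subunit *Atp6ap1* rose from 131, 143 and 142 CPM to 181, 176 and 186 CPM (log2 fold change 0.39, SE 0.05, adjusted p = 0.000327). Of the core subunits of the pump, 3 overlapped between groups, with log2 fold changes of 0.08 for *Atp6v1a*, 0.04 for *Atp6v0e* and -0.00 for *Atp6v1h*. *Atp6v0d1* was lower, with 93.9, 101.7 and 95.4 CPM in the controls and 84.5, 85.1 and 91.4 CPM with LiCl (log2 fold change -0.16, SE 0.05, adjusted p = 0.0388). That call was lost in 12 of 16 alternatives, among them the fits without control replicate 2 (adjusted p = 0.124), control replicate 3 (0.0928), LiCl replicate 1 (0.117) or LiCl replicate 2 (0.11).

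The autophagy genes showed the widest range of changes, with a median log2 fold change of -0.11. Of the 10, 1 was higher (10%) and 3 were lower (30%), against 21.1% and 22.4% of all genes tested. *Wipi1*, which binds phosphatidylinositol 3-phosphate on the forming autophagosome, had 67.7, 59.0 and 63.2 CPM in the controls and 24.8, 26.8 and 25.7 CPM with LiCl. It was 2.46-fold lower (log2 fold change -1.30, SE 0.06, adjusted p = 1.28e-06), and its highest LiCl sample was below its lowest control by far more than the spread within either group.

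The genes of ubiquitin-like proteins that are coupled to the autophagosome membrane differed from each other. *Map1lc3a* fell from 34.8, 36.8 and 31.3 CPM to 21.6, 19.97 and 18.8 CPM (log2 fold change -0.77, SE 0.08, adjusted p = 8.56e-05), and *Gabarapl1* from 79.7, 79.0 and 81.1 CPM to 56.5, 59.7 and 53.0 CPM (log2 fold change -0.50, SE 0.05, adjusted p = 0.000113). *Map1lc3b*, the paralog whose protein is the usual autophagosome marker, had a log2 fold change of -0.11 (SE 0.05, adjusted p = 0.0986). On the FPKM scale, which is per gene length, *Map1lc3a* was above *Map1lc3b* in the controls (28.9, 31.0 and 26.2 against 18.9, 20.6 and 18.9). With LiCl the ranges of the 2 genes overlapped (18.3, 16.9 and 15.97 against 17.9, 18.4 and 18.5).

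*Uvrag*, a subunit of the class III phosphatidylinositol 3-kinase complex, was the autophagy gene that rose, from 30.4, 31.1 and 31.4 CPM to 41.2, 40.5 and 38.7 CPM (log2 fold change 0.37, SE 0.05, adjusted p = 0.00047). Its partner *Becn1* did not pass (0.11, SE 0.05, adjusted p = 0.126), although it did without LiCl replicate 2 (adjusted p = 0.0391). The initiating kinase gene *Ulk1* had a log2 fold change of 0.03 (SE 0.05), and the conjugation genes *Atg5* and *Atg7* had 0.10 (SE 0.06) and -0.12 (SE 0.05). The cargo receptor gene *Sqstm1* had -0.11 (SE 0.04, adjusted p = 0.0776). *Sqstm1*, *Map1lc3b* and *Atg7* lay below all controls in every LiCl sample without passing, an order seen in 27.8% of all genes tested. Among the alternatives, these 3 passed as lower only when counts were scaled by library size alone, with adjusted p-values of 0.0352, 0.0466 and 0.0464.

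Levels were compared between genes on the FPKM scale. In the controls the 45 genes ranged from 1.58 (*Gpnmb*) to 203 (*Psap*), with a median of 13.9. *Lamp1* (102), *Ctsd* (72.0) and *Sqstm1* (68.2) followed *Psap*, while *Mitf* (1.63), *Sgsh* (2.42) and *Tfeb* (2.44) were near the lower end. *Tfe3* stood at 7.11 ± 0.35 FPKM (SD, n = 3) in the controls, above *Tfeb* (2.44 ± 0.09) and *Mitf* (1.63 ± 0.26), and the order of the 3 was the same with LiCl. *Tfeb* and *Sgsh* did not differ beyond their spread in the controls.

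**Figure D3:**
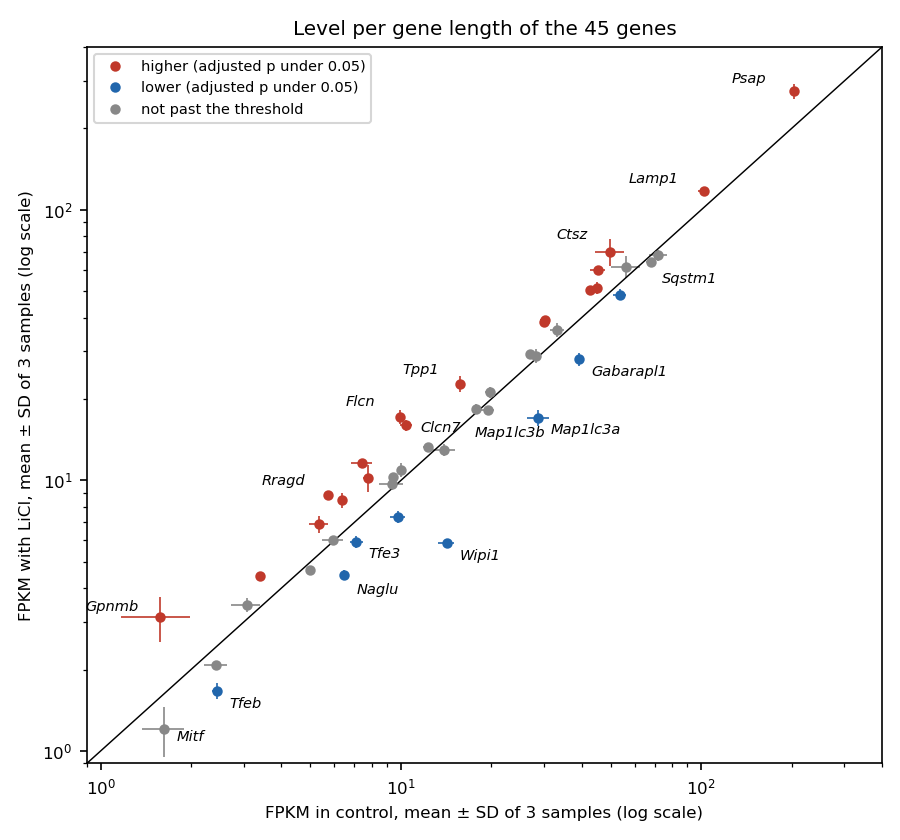
Mean FPKM with SD of 3 samples in LiCl against control for the 45 genes, both axes on a log scale, with the diagonal marking equal levels. *Psap* lies at the upper end at 203 FPKM in the controls and above the diagonal, and *Wipi1*, *Map1lc3a* and *Gabarapl1* lie below it.

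Promoters were examined because the TFEB family binds E-boxes. RefSeq promoter windows of the GRCm38.p6 build, from 250 bases before to 50 bases after each start, were given for 41 of the 45 genes and for 27025 genes in all. Several of the 45 genes are textbook CLEAR genes, so a high share of the motif is a property of the choice. The E-box CACGTG was found on either strand in 18 of the 41 genes (43.9%), against 8.09% of all genes. The 7-base form TCACGTG, which contains that E-box, was found in 15 (36.6% against 4.29%), and the 8-base palindrome TCACGTGA at the centre of the CLEAR element, which contains both, in 8 (19.5% against 1.12%). The M-box TCATGTG, whose letters overlap none of these forms, was found in 5 (12.2% against 4.31%).

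The following windows of 30 bases, read 5′ to 3′ on the strand of the gene, show E-boxes of genes that rose (*Clcn7*, *Mcoln1*, *Ctsa*, *Fnip1*, *Lamp1*), fell (*Naglu*, *Ctsf*, *Atp6v0d1*) or passed in neither direction (*Gla*, *Atp6v1a*). Capitals mark the E-box and the flanking T or A of the CLEAR form where present.
Clcn7, chr17:25133364-25133393, plus strand: tccgtcgtcagTCACGTGggcaccgatgat
Clcn7, chr17:25133386-25133415, plus strand: ccgatgatagaTCACGTGAgacctgggcgc
Mcoln1, chr8:3500436-3500465, plus strand: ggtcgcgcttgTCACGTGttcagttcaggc
Mcoln1, chr8:3500462-3500491, plus strand: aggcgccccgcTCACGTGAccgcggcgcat
Ctsa, chr2:164833749-164833778, plus strand: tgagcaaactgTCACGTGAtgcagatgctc
Fnip1, chr11:54438092-54438121, plus strand: tcagtttgctgcCACGTGAtacggctcgtc
Lamp1, chr8:13159088-13159117, plus strand: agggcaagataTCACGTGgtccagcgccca
Naglu, chr11:101070009-101070038, plus strand: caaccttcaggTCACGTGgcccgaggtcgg
Ctsf, chr19:4855074-4855103, plus strand: caccccgtggtcCACGTGcctcgcgtaaat
Atp6v0d1, chr8:105566050-105566079, minus strand: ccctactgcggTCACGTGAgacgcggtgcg
Gla, chrX:134601215-134601244, minus strand: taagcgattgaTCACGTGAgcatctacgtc
Atp6v1a, chr16:44139373-44139402, minus strand: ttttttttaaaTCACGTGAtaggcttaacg

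Over the 18 genes, 26 E-boxes were found, 23 before the start and 3 after it. *Lamp1* held 4 of them, and 6 genes held at least 2. *Clcn7*, *Mcoln1* and *Ctsa*, which rose, and *Gla*, *Atp6v1a* and *Atp6v0d1*, which did not, all carried the 8-base form. E-boxes were found in genes of either direction. Of the 18 genes with an E-box 6 were higher and 3 lower, with a median log2 fold change of 0.09. Of the 23 without it 12 were higher and 4 lower, with a median of 0.18. Among all genes tested, 21.1% were higher and 22.4% lower, and a link between motif and change was not tested. *Flcn*, *Rragd*, *Psap*, *Atp6ap1* and *Gpnmb* rose without the letters CACGTG in this window. *Wipi1* and *Gabarapl1*, which fell, also lacked them there. Of the 5 genes with an M-box, *Clcn7*, *Ctsa* and *Tpp1* were higher, and *Gla* and *Scarb2* passed in neither direction. A match in a promoter is a description of its letters, not of binding.

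**Figure D4:**
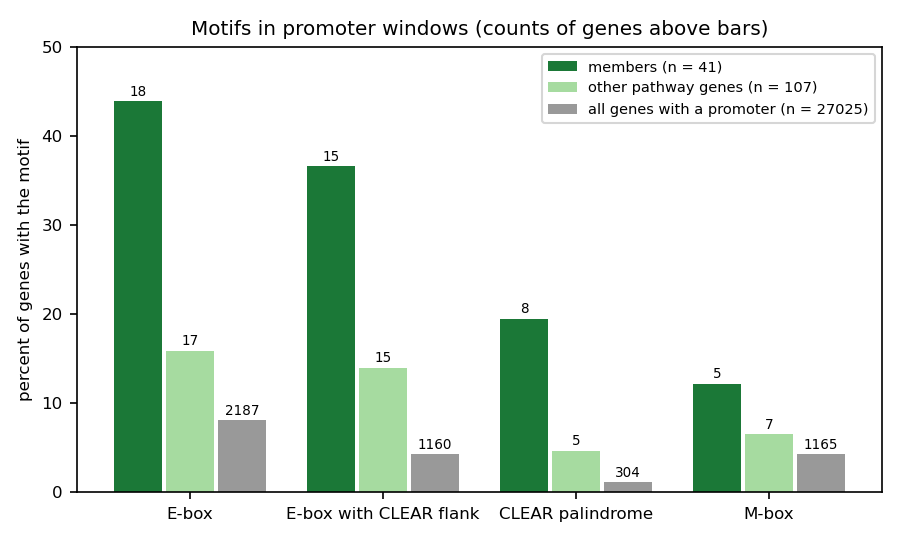
Percent of genes whose RefSeq promoter window holds each of the 4 motifs, for the members (n = 41), the other pathway genes (n = 107) and all genes with a promoter (n = 27025), with the number of genes above each bar. The E-box was in 43.9% of the members, 15.9% of the other pathway genes and 8.09% of all genes.

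Other genes of the same pathways were taken from lists of 138 genes, of which 135 were tested. Of these, 39 were higher (28.9%) and 26 lower (19.3%), against 21.1% and 22.4% of all genes tested. Their median log2 fold change was 0.06. Lysosomal membrane and transport genes were higher in 11 of 22 and lower in 3, led by *Laptm4b* (log2 fold change 0.47) and the cystine exporter gene *Ctns* (0.46), with the sorting receptor gene *Sort1* (-0.42) lowest. Other lysosomal hydrolases were higher in 7 of 33 (21.2%) and lower in 5 (15.2%). The acid phosphatase genes *Acp5* (0.88, SE 0.21) and *Acp2* (0.45, SE 0.04) rose most, *Acp5* from a low level (mean of 1.65 CPM in the controls). *Ctso* (-0.70, SE 0.11), *Ctss* (-0.67, SE 0.15) and *Smpd1* (-0.49, SE 0.06) fell most.

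Of 16 tested V-ATPase genes outside the 45, 6 were higher (37.5%) and 3 lower (18.75%), against 21.1% and 22.4% of all genes tested. *Atp6ap2*, the other accessory subunit of the pump, rose from 70.6, 76.6 and 70.8 CPM to 105, 101 and 104 CPM (log2 fold change 0.51, SE 0.05, adjusted p = 6.26e-05), as *Atp6ap1* had done. *Atp6v0a4*, a membrane subunit at a low level, fell by 1.45 on the log2 scale (SE 0.30, adjusted p = 0.00408). *Atp6v1b1*, *Atp6v1c2* and *Atp6v1g3* had too few counts to be tested.

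Other autophagy genes were lower in 12 of 39 (30.8%) and higher in 7 (17.9%), against 22.4% and 21.1% of all genes tested. The 4 mammalian genes of the WIPI family differed in direction: beside *Wipi1*, *Wdr45* fell (-0.72, SE 0.08, adjusted p = 0.000115) and *Wipi2* fell slightly (-0.20, SE 0.04, adjusted p = 0.0044), while *Wdr45b* rose (0.25, SE 0.04, adjusted p = 0.00183). The receptor genes *Calcoco1* (-0.51) and *Bnip3l* (-0.46) and the kinase gene *Ulk2* (-0.43) were also lower, and *Atg16l1* (0.42) was the highest. Chosen after their values were seen, the paralogs *Gabarap* (0.02, SE 0.05) and *Gabarapl2* (-0.18, SE 0.07) did not pass, unlike *Gabarapl1*.

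The mTORC1 and amino acid sensing genes were higher in 8 of 25 (32%) and lower in 3 (12%), against 21.1% and 22.4% of all genes tested. *Sesn2*, a leucine sensor that is also induced by stress, rose from 67.3, 56.8 and 63.8 CPM to 107, 90.1 and 102 CPM (log2 fold change 0.67, SE 0.08, adjusted p = 0.000196). The amino acid transporter genes *Slc7a5* (0.51, SE 0.06) and *Slc3a2* (0.48, SE 0.05), whose products form a heterodimer, rose by similar amounts. Of the Rag GTPase genes beside *Rragd*, *Rraga* fell (-0.28, SE 0.05, adjusted p = 0.00288) and *Rragc* rose slightly (0.15, SE 0.05, adjusted p = 0.0395). *Rragb*, also chosen after its value was seen, did not pass (0.04, SE 0.10). The arginine sensor gene *Castor1* was lowest (-1.05, SE 0.28).

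**Figure D5:**
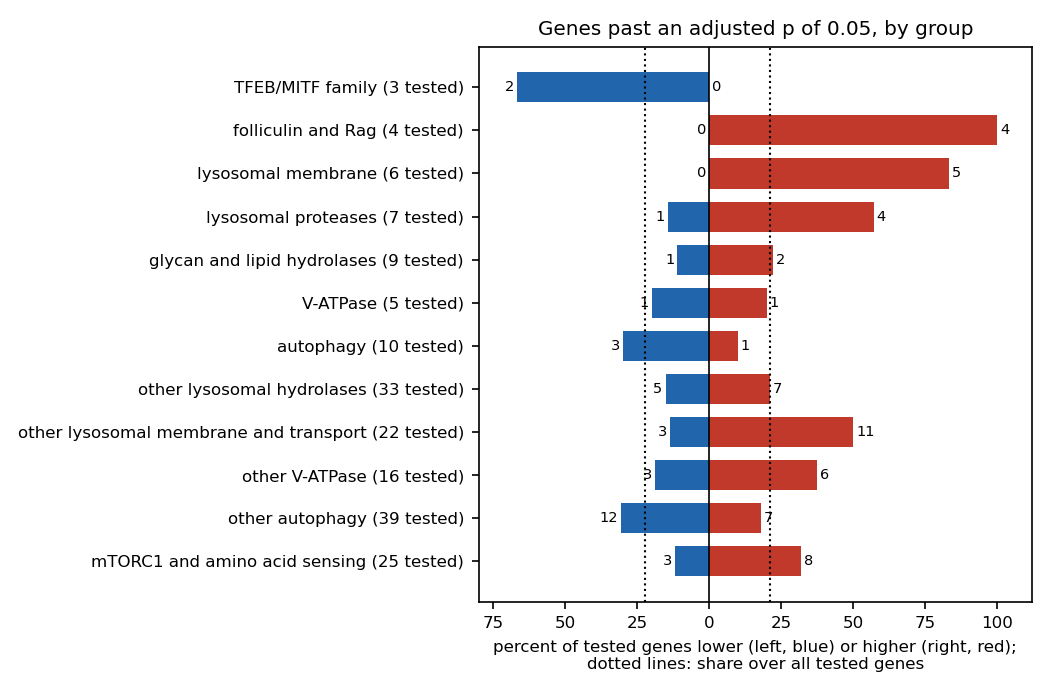
Percent of tested genes in each role group that were lower (left) or higher (right) with LiCl at an adjusted p under 0.05, with gene counts at the bar ends and dotted lines at the shares over all tested genes (22.4% lower and 21.1% higher). The folliculin and Rag genes (4 of 4 higher) and lysosomal membrane genes (5 of 6 higher) lie above the dotted line. So do the proteases (57.1%), other lysosomal membrane and transport genes (50%), other V-ATPase genes (37.5%) and mTORC1 genes (32%). On the lower side the TFEB/MITF family (2 of 3, 66.7%) and both autophagy groups (3 of 10 and 12 of 39) lie above it. The shares of the smaller groups rest on few genes.

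Marker genes of skeletal muscle and of the ureter also differed between samples. Skeletal muscle markers summed to 39.5 and 80.2 CPM in LiCl replicates 1 and 3, whereas LiCl replicate 2 had 8.70 CPM and no control exceeded 10.9 CPM. Replicate 2 was the lowest LiCl sample in 13 of the 18 genes that rose. In the fit with it as the only LiCl sample the median log2 fold change of these 18 genes was 0.38 (0.39 with all samples). Their direction there was fixed because none of them overlapped between groups. The size was partly fixed too, because LiCl replicate 2 was among the samples in which these genes were called. In that smaller fit *Tfe3*, *Lamp1*, *Cd63*, *Mcoln1* and *Atp6v0d1* no longer passed, and *Mcoln1* moved from 0.38 to 0.19 (adjusted p = 0.132) and *Cd63* from 0.18 to 0.11 (adjusted p = 0.33). Epithelial markers were lower with LiCl in 8 of 10 genes (sums of 1191 to 1491 CPM in the controls and 903 to 941 CPM with LiCl). *Epcam* was higher (log2 fold change 0.37) and *Cldn7* did not pass (-0.19). Mesenchymal markers were lower in 8 of 10 genes (6586 to 7368 CPM and 4754 to 5226 CPM), while *Foxf1* (0.08) and *Ptch1* (0.10) did not pass. The part of skeletal muscle cells and of these ureteric markers in the results was not tested.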

How the data were processed

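Total counts per sample lay between 28473436 and 31266945. The authors deposited raw gene counts without normalization, made from 150 bp paired-end, stranded poly-A libraries on GRCm39. The paper names HISAT2 as aligner, the submitters' processing notes STAR 2.7, and both name featureCounts (2.0 in the notes, beside fastp 0.23 and DESeq2 1.40). Annotation release and strand setting are not given in the sources used here, so overlapping genes and close paralogs are uncertain. The authors also deposited FPKM values. Their ratio to counts scaled by DESeq2 size factors was constant across samples (within a thousandth). This held in 100% of values of genes with more than 50 counts in every sample. The gene lengths behind that ratio were not checked.

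Symbols came from GENCODE vM21 (52073 of 56748 identifiers). The test was the quasi-likelihood F test of edgeR 4.0.16 (R 4.3.3) on genes kept by filterByExpr (18188), normalized by TMM and adjusted after Benjamini and Hochberg. Standard errors follow from each coefficient and its F value. Scripts were tested on simulated data. Members, lists and tests were chosen with earlier results of these data known. Every member is reported. Of the pathway lists, genes with an adjusted p under 0.05 or the 3 largest or smallest log2 fold changes could be named, and of the marker lists the defining and most abundant genes. Alternatives were other scalings (RLE factors, or library size alone), another tool (DESeq2 1.42.0), other filters (none, or a minimum of 10 counts in all samples), a block for the replicate number, replicates left out, glmTreat, and limma 3.58.1 on log2(FPKM + 1) and log2(FPKM + 0.1) of the deposited FPKM (mean of at least 0.5, or unfiltered).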

Additional observations from a re-analysis of the deposited data

How the results depend on the processing

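The number of members called higher stayed between 15 and 19 and the number called lower between 6 and 12 over the alternatives, and 21 of the 26 called members (15 higher, 6 lower) passed in all 16 alternatives in which single genes were recomputed. The exceptions were *Tfe3*, *Lamp1*, *Cd63*, *Mcoln1* and *Atp6v0d1*, all of which lost their call when both LiCl replicates 1 and 3 were left out, a fit with fewer samples that takes the lone LiCl sample to vary like the controls. That fit also gave 24 higher and 17 lower among the other pathway genes, in place of 39 and 26. Scaling by library size alone moved the median log2 fold change of the members from 0.107 to 0.0719. With the fold minimum, 0 to 1 members were called higher when 1 replicate was left out. The replicate numbers of the labels gave no evidence of pairing (correlations of deviations of 0.01, -0.14 and 0.12, with 2 of 6 samples closest to their own number), and with the replicate block 17 members were higher and 8 lower, *Mitf* passing (adjusted p = 0.0191) and *Cd63* (0.051) and *Atp6v0d1* (0.0761) not. The sign turned only in genes near 0 that did not pass: *Atp6v1h* was 0.0104 with RLE factors, 0.0168 with DESeq2, 0.0272 without filter, 0.00199 with the replicate block, 0.0162 on log2(FPKM + 1) with or without filter and 0.0189 on log2(FPKM + 0.1), and lay between -0.0377 and 0.0652 when 1 replicate was left out. *Gaa* was -0.0151 with library size only, -0.0377 without both LiCl replicates 1 and 3, and between -0.0264 and 0.0554 with 1 replicate left out. *Ulk1* was -0.0055 with library size only, and *Atp6v0e* lay as low as -0.0038 without control replicate 3. The cause of these shifts was not tested. The largest standard errors were those of *Gpnmb* (0.18) and *Mitf* (0.17), against 0.04 for *Lamp1*. *Tfeb* (0.09), *Sgsh* (0.10) and *Gla* (0.10) had similarly low counts but smaller errors, and *Ctsb*, with many counts, had 0.09. Small changes in *Mitf* and *Gpnmb* were thus less detectable with 3 samples per group. Of the members that did not pass, 6 (*Mitf*, *Glb1*, *Sqstm1*, *Map1lc3b*, *Becn1* and *Atg7*) passed in at least 1 alternative.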
